A study of Mus musculus with 6 samples.

Results

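The genes examined are 9 genes of blood stem and progenitor cells, Kit, Cd34, Tal1, Lmo2, Gata2, Runx1, Meis1, Hoxa9 and Myb. They were measured in total RNA of liver by 12 of the 39429 probes of a one-colour (Cy3) oligonucleotide array. Every probe whose transcript accession belongs to one of the 9 genes was taken, and each was kept separate. The array holds 20659 genes with a symbol, of which these are 9. The samples were 3 of liver from Sec15 KO mice and 3 of liver from WT mice, all male, 6 weeks old and untreated, with 1 array each. Sec15 is a subunit of the exocyst, a complex that holds vesicles at the plasma membrane before they fuse, and the series asks how it bears on STAT3 transport and on blood stem cells. The strain, the allele, the cell type in which Sec15 was deleted and the animal behind each replicate are not given in the sources used here, so a p-value here reflects the variation among these 6 samples, some of which may be technical.

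The 9 genes belong to the circuit that makes and maintains blood stem cells. KIT is the receptor tyrosine kinase for stem cell factor, and CD34 is a sialomucin of the cell surface. TAL1, LMO2 and GATA2 work in 1 DNA-bound complex in which LMO2 is the bridge and has no DNA contact of its own. RUNX1 is needed for blood stem cells to emerge from haemogenic endothelium, MEIS1 and HOXA9 bind DNA as partners, and MYB sustains progenitors. The fetal liver is a site of blood formation, whereas in adult liver several of these genes are also used by other cells: Cd34, Lmo2 and Tal1 by endothelium, Kit and Gata2 by mast cells, and Tal1 and Lmo2 by red cell precursors. In RNA of whole liver, fewer cells of a type and less RNA per cell cannot be told apart.

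A probe was tested when it was well above background, by the scanner software's own flag, on at least 3 of the 6 arrays. Of the 12 probes, 8 passed and 6 were well above background on all 6 arrays. Among the 4 that did not pass, Gata2 was well above background on 1 array, and the probes of Myb, one of Runx1 and one of Cd34 were on none. Levels below are log2 processed signal relative to the array's 75th percentile, so they compare arrays and not probes. Differences between the groups are limma log2 fold changes, Sec15 KO minus WT, with p-values adjusted by the Benjamini-Hochberg method over the 27024 probes tested. At an adjusted p under 0.05, 2 of the 8 probes were higher in KO, those of Lmo2 and Meis1, and none was lower. Of all tested probes 17% were higher and 11.6% lower, 28.6% in all, so the count among the 9 genes is near the background and is not a result about these genes. The KO and WT values did not overlap for the same 2 of 8 probes, against 50.2% of all tested probes (30.6% higher in KO and 19.6% lower).

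Several facts of the whole set bear on these values. Between 64.8% and 65.4% of probes were well above background on the KO arrays, against between 67.3% and 70.3% on the WT arrays, and no spot was saturated. The scan times in the headers fall into 2 sets, read here as slides: slide 1 holds all WT arrays with KO replicate 2, and slide 2 holds KO replicates 1 and 3. With slide as a blocking term, which leaves KO replicate 2 as the KO arm against WT, no member probe was called, where 9.34% of all tested probes were (4.85% higher and 4.48% lower). Of the calls without the block, 59.4% were higher in KO, against 70.1% with each array centred on its median and 47.8% after cyclic loess. The median of all tested probes was 0.08 on the log2 scale and 0.19 with median centring. Of the Sec15 genes, the Exoc6 probe was well above background on no KO array and 1 WT array, 1 Exoc6b probe was on none, and the other Exoc6b probe fell by 0.53 (SE 0.15, limma adjusted p = 0.0436), a call that ended with the block (adjusted p = 0.13). The part deleted is not given, so these probes do not check the genotype.

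**Figure D1:**
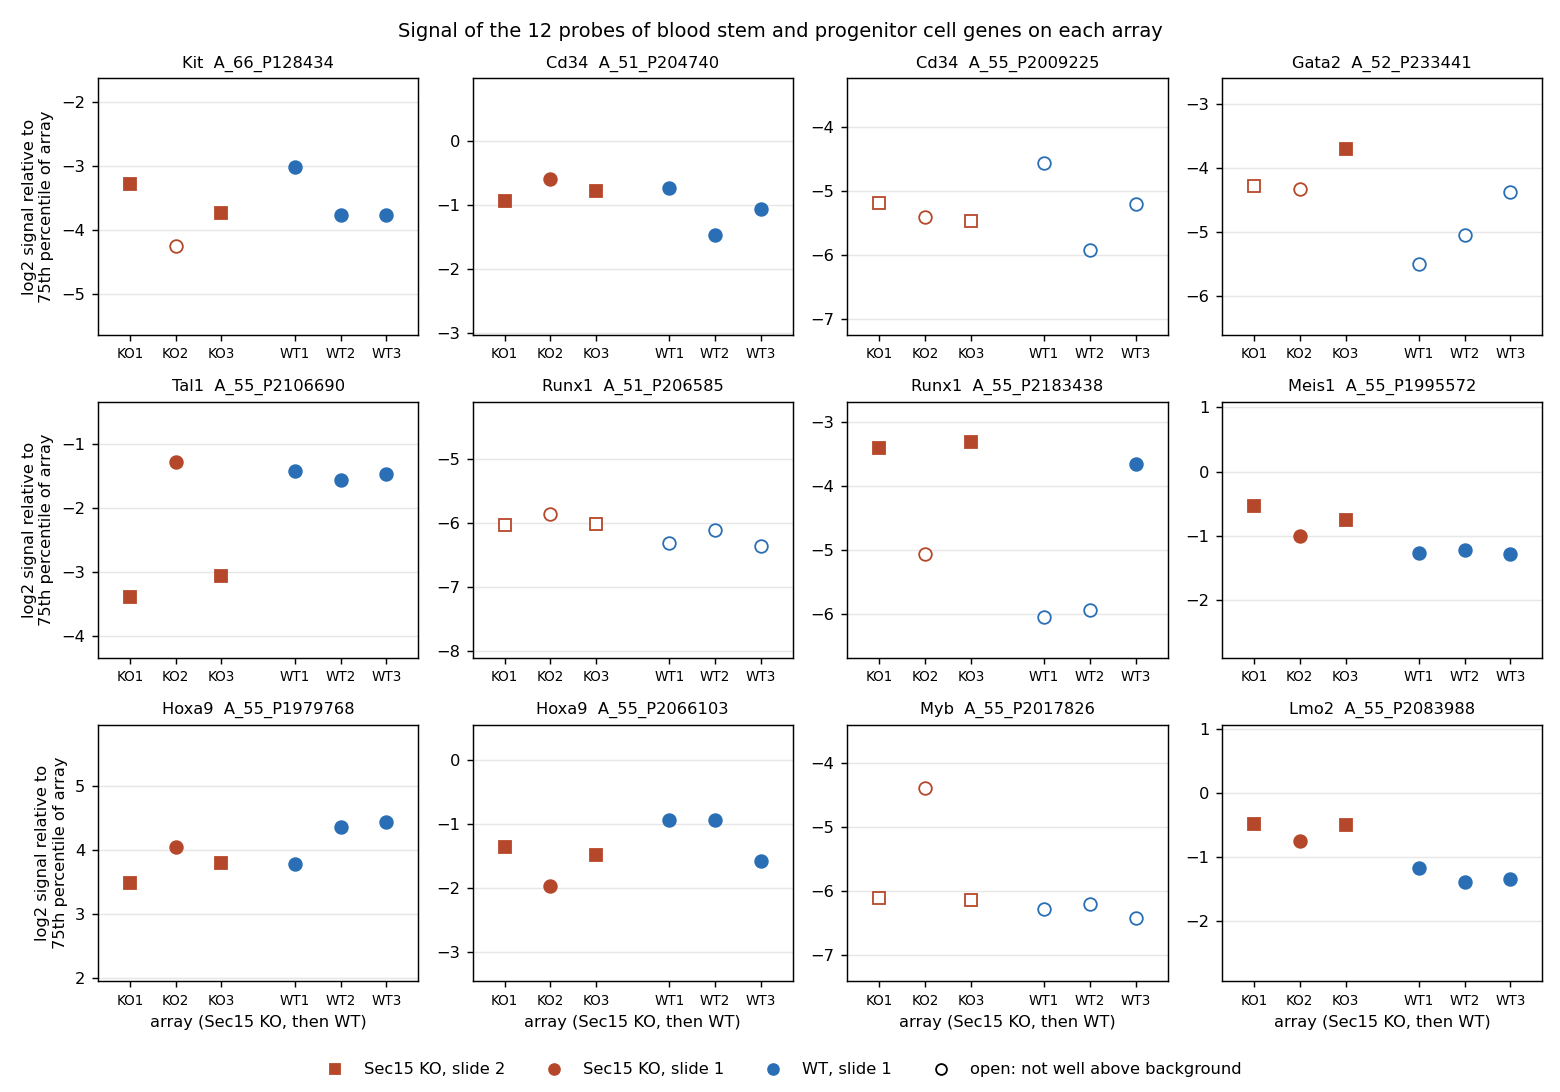
Each panel plots 1 probe, with the arrays on the x axis (Sec15 KO left, WT right) and the log2 processed signal relative to the array's 75th percentile on the y axis, which spans 4 log2 units in every panel. Squares are arrays of slide 2, circles those of slide 1, and open symbols are not well above background; the Lmo2 and Meis1 panels show the 3 KO arrays above the 3 WT arrays, and the Tal1 panel shows only KO replicates 1 and 3 low.

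The receptor and the surface protein come first. The Kit probe A_66_P128434 read -3.27, -4.24 and -3.73 in Sec15 KO replicates 1, 2 and 3, against -3.01, -3.76 and -3.77 in WT replicates 1, 2 and 3. It was well above background on 2 KO arrays and all 3 WT arrays, close to the detection limit throughout, and the groups overlapped. KO replicate 2, on which the slide 1 difference below rests, was the KO array not well above background. The difference was -0.24 (SE 0.32, 95% confidence interval -1.01 to 0.54, limma adjusted p = 0.586). Within slide 1 the Kit difference was -0.73 (adjusted p = 0.234 with slide as a blocking term).

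Cd34 has 2 probes. A_51_P204740, flagged as above background on every array, read -0.94, -0.59 and -0.78 in KO replicates 1 to 3 and -0.73, -1.46 and -1.06 in WT replicates 1 to 3. The highest WT array lay among the KO arrays, so the groups overlapped. The Cd34 difference was 0.32 (SE 0.21, interval -0.19 to 0.83, limma adjusted p = 0.277), and 0.50 within slide 1. The second Cd34 probe, A_55_P2009225, ranged between -5.46 and -5.19 in KO and between -5.92 and -4.56 in WT, and was not well above background on any array.

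The TAL1 complex follows. Lmo2, the LIM-only bridge of the complex, read -0.49, -0.75 and -0.51 in Sec15 KO replicates 1 to 3, against -1.18, -1.39 and -1.35 in WT replicates 1 to 3 (probe A_55_P2083988). All 3 KO arrays lay above all 3 WT arrays. Lmo2 rose 1.65-fold in KO (-0.58 ± 0.15 against -1.30 ± 0.11, mean ± SD, n = 3 each, log2 fold change 0.72, SE 0.12, limma adjusted p = 0.0131). The exact two-sided permutation test of Lmo2 gave p = 0.1, the smallest that 3 against 3 allows. Within slide 1, KO replicate 2 lay 0.55 above the WT mean, and the call ended with slide as a blocking term (adjusted p = 0.0588, interval 0.22 to 0.88). It also ended without KO replicate 3 (adjusted p = 0.066) and without WT replicate 3 (adjusted p = 0.0722).

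Tal1, the basic helix-loop-helix factor of the complex, split the KO arrays. Its probe A_55_P2106690 read -3.40, -1.29 and -3.06 in KO replicates 1 to 3, against -1.43, -1.57 and -1.47 in WT replicates 1 to 3. In processed signal units before scaling these were 26.6, 109 and 28.7 in KO and 116, 93.9 and 92.9 in WT. After scaling, KO replicate 2 read higher than every WT array, and before scaling it lay below WT replicate 1. KO replicates 1 and 3 lay below all other arrays on both scales, so the groups overlapped and the difference of -1.09 (SE 0.54, limma adjusted p = 0.166) describes no array. Within slide 1 the Tal1 difference was 0.20 (interval -0.22 to 0.63, adjusted p = 0.432 with slide as a blocking term), opposite in sign. Without KO replicate 2 the difference was -1.74 (adjusted p = 0.00302), and it then compares slide 2 with slide 1, so slide and genotype cannot be told apart there. In a count made after the Tal1 values were seen, 863 of the 27024 tested probes (3.19%) had KO replicates 1 and 3 at least 1 log2 unit below each of the other 4 arrays, and 32 (0.118%) had them at least 1 unit above.

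Gata2, the zinc finger factor of the complex, was near the detection limit. Its probe A_52_P233441 read -4.29, -4.33 and -3.71 in KO replicates 1 to 3, against -5.50, -5.05 and -4.38 in WT replicates 1 to 3. It was well above background in KO replicate 3 alone, and no WT array measured it. No fold is given, because KO replicates 1 and 2 were not well above background either, and the probe was not tested.

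The partners of TAL1 and LMO2 were covered by a list of 17 genes, of which 14 were tested through 20 probes. Of these probes 4 were higher in KO and 2 lower, with a median log2 fold change of 0.02, against 17% and 11.6% of all probes and a median of 0.08. The same shares of all probes are the background for every list count below that is made without the block. Lyl1, a close relative of Tal1, rose 1.61-fold (log2 fold change 0.69, SE 0.12, limma adjusted p = 0.0152). It read -1.13, -0.75 and -0.98 in KO replicates 1 to 3 and -1.59, -1.67 and -1.67 in WT replicates 1 to 3, and it kept its call with slide as a blocking term (0.89, adjusted p = 0.0278). Both probes of Tcf12, an E protein that pairs with TAL1, were higher, by 0.62 (adjusted p = 0.0181) and 0.52 (adjusted p = 0.0291). Ssbp2, which stabilises the adaptor LDB1, fell by 0.53 (adjusted p = 0.0283). The calls of Tcf12 and Ssbp2 ended with slide as a blocking term, at adjusted p between 0.0613 and 0.134.

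Runx1, the DNA-binding partner of core binding factor beta, was dim. Probe A_55_P2183438 read -3.40, -5.06 and -3.31 in KO replicates 1 to 3, against -6.05, -5.93 and -3.65 in WT replicates 1 to 3. It was well above background in KO replicates 1 and 3 and in WT replicate 3, so it was measured in part of each group, and the groups overlapped. The difference was 1.29 (SE 0.79, interval -0.65 to 3.22, limma adjusted p = 0.247), and 0.15 within slide 1. Both include KO replicate 2 and WT replicates 1 and 2, which are not measured levels, so neither is the size of a change. The other Runx1 probe, A_51_P206585, ranged between -6.03 and -5.86 in KO and between -6.35 and -6.11 in WT and was not well above background on any array. Its partner Cbfb, in contrast, was well above background throughout and rose 1.52-fold, with -0.24, -0.15 and -0.14 in KO replicates 1 to 3 and -0.81, -0.71 and -0.83 in WT replicates 1 to 3. The log2 fold change of Cbfb was 0.60 (SE 0.09, limma adjusted p = 0.0109), and 0.63 with slide as a blocking term (adjusted p = 0.0402). In the list of RUNX partners and family, 14 probes were tested, 1 was higher and 1 was lower, with a median of 0.08. The lower one belongs to the corepressor Tle1 (-0.50, adjusted p = 0.0353), and its call ended with slide as a blocking term (-0.27, adjusted p = 0.148). The other named Tle1 probe differed by 0.63 (adjusted p = 0.0622).

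Meis1, the TALE homeobox partner of HOX proteins, was the second gene called. Probe A_55_P1995572 read -0.54, -1.01 and -0.76 in KO replicates 1 to 3, against -1.27, -1.23 and -1.28 in WT replicates 1 to 3. All KO arrays lay above all WT arrays, with KO replicate 2, the KO array of slide 1, closest to WT. Meis1 rose 1.40-fold (-0.77 ± 0.24 in KO against -1.26 ± 0.03 in WT, mean ± SD, n = 3 each, log2 fold change 0.49, SE 0.14, limma adjusted p = 0.0465). Within slide 1 the difference was 0.25, and the call ended with slide as a blocking term (adjusted p = 0.243). It ended in 11 of 19 alternative settings, among them the leaving out of any WT array (adjusted p between 0.0899 and 0.151) or of KO replicate 1 (0.105) or 3 (0.144), and the averaging of WT replicates 1 and 2, whose deposited names share a number (0.0846).

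Hoxa9, the homeobox factor that binds DNA with MEIS1 and PBX proteins, has 2 probes for the same transcript accession, both well above background on all arrays. Their processed signals were far apart, between 3124 and 5759 for A_55_P1979768 and between 67.9 and 162 for A_55_P2066103. Whether each measures Hoxa9 was not tested. A_55_P1979768 read 3.48, 4.05 and 3.80 in KO replicates 1 to 3 and 3.78, 4.37 and 4.43 in WT replicates 1 to 3. A_55_P2066103 read -1.37, -1.97 and -1.49 in KO and -0.95, -0.94 and -1.59 in WT. On both, 2 WT arrays lay above all KO arrays and 1 WT array lay among them, and that array was WT replicate 1 on the first probe and WT replicate 3 on the second. The differences were -0.42 (SE 0.23, limma adjusted p = 0.204) and -0.45 (SE 0.25, adjusted p = 0.198), and neither passed the test. Within slide 1 they were -0.15 and -0.81, so the probes moved apart there.

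Among 28 other HOX, MEIS and PBX genes, 17 were tested through 20 probes, and Hoxa2, Hoxa5, Hoxa11, Hoxc4, Hoxc6 and Hoxc8 were well above background on no array. Of the 20 probes 3 were higher and 4 lower in KO, with a median of -0.26. Pbx4 fell by 1.84 (SE 0.29, adjusted p = 0.0116) and Hoxb2 rose by 0.61 (SE 0.12, adjusted p = 0.0177), and both calls ended with slide as a blocking term (adjusted p = 0.0683 and 0.0813).

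Myb, the progenitor transcription factor, was not measured above background. Its probe A_55_P2017826 read -6.10, -4.38 and -6.13 in KO replicates 1 to 3, against -6.27, -6.21 and -6.42 in WT replicates 1 to 3. None of these was flagged as well above background, KO replicate 2 included, so no fold is given. Of 8 probes for the MYB family and coactivators, 6 were tested, 2 were higher and 2 lower, with a median of -0.33. Mybl1 was well above background on no array. The coactivators Crebbp and Ep300 rose by 0.63 (adjusted p = 0.0113) and 0.68 (adjusted p = 0.0399). Men1, a subunit of MLL complexes, fell on 2 probes, with differences of -2.24 (adjusted p = 0.012) and -0.56 (adjusted p = 0.0344). All 4 calls ended with slide as a blocking term (adjusted p between 0.052 and 0.155).

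**Figure D2:**
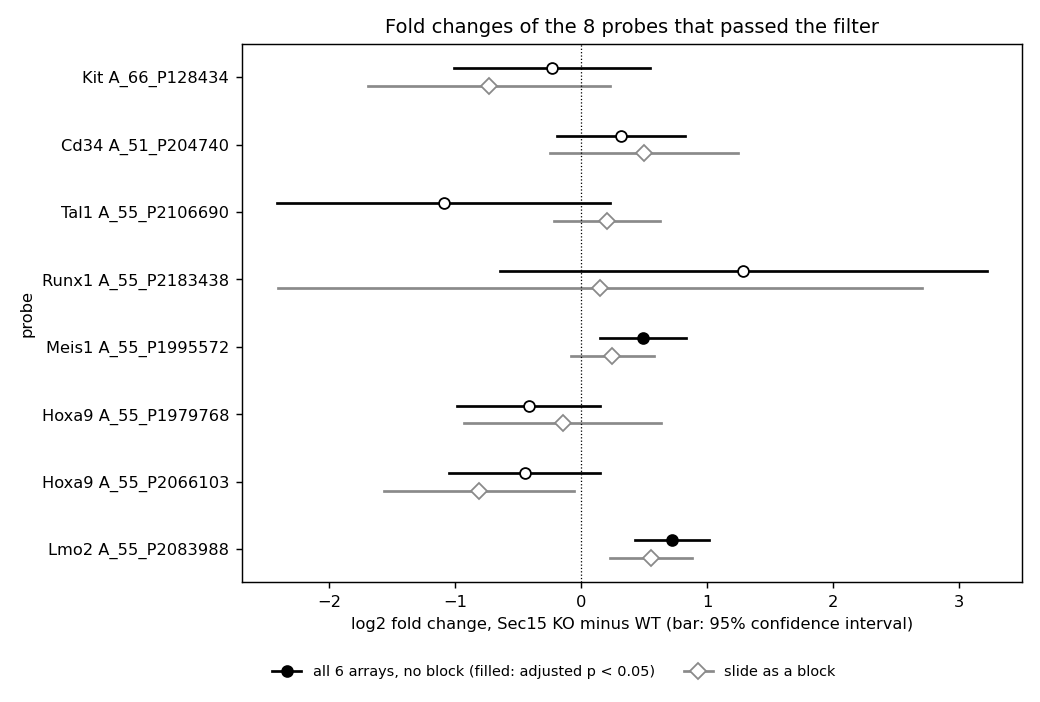
The x axis gives the log2 fold change, Sec15 KO minus WT, with its 95% confidence interval as a bar, for the 8 probes on the y axis. Black circles are the comparison of all 6 arrays and grey diamonds the comparison with slide as a blocking term; filled symbols mark an adjusted p under 0.05, which Lmo2 and Meis1 reached without the block and no probe reached with it.

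KIT signalling was followed through its ligand, receptor relatives and adaptors, 23 tested probes of which 4 were higher and 2 lower (median 0.18). These are 17.4% and 8.7%, near the 17% and 11.6% of all tested probes. Pik3r1, the regulatory subunit of PI3 kinase, rose by 0.84 (SE 0.14, adjusted p = 0.0131) and Ptpn11, the phosphatase SHP2, rose by 0.50 (SE 0.09, adjusted p = 0.0143). These calls were kept with slide as a blocking term (adjusted p = 0.0434 and 0.0452). Sos1, a RAS exchange factor, rose by 0.81 (adjusted p = 0.026), and the adaptor Grb2 fell by 0.50 (adjusted p = 0.0146), and both lost the call with that block (adjusted p = 0.136 and 0.0587).

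The label of the 9 genes was then set against other markers of blood stem cells. Of 22 such genes, 20 were tested through 24 probes, of which 4 were higher and 2 lower in KO (median 0.20). These are 16.7% and 8.33%, against 17% and 11.6% of all tested probes, so the counts are near the background. Slamf1, a defining surface marker of blood stem cells, was well above background on no array. The 4 markers with the smallest p were all higher in KO. Esam, an adhesion molecule, rose 2.00-fold (log2 fold change 1.00, SE 0.10, limma adjusted p = 0.00649), reading 1.09, 0.95 and 1.18 in KO replicates 1 to 3 and 0.03, 0.13 and 0.07 in WT replicates 1 to 3. The surface protein Cd93 rose 1.97-fold (adjusted p = 0.0113), Ly6a, the Sca-1 antigen, rose 2.33-fold (adjusted p = 0.0143), and Cdkn1c, an inhibitor of the cell cycle, rose 1.56-fold (adjusted p = 0.0166). Esam and Cd93, both also made by endothelium, kept their calls with slide as a blocking term (adjusted p = 0.0274 and 0.025), and Ly6a and Cdkn1c did not (adjusted p = 0.0648 and 0.0794). Of the granulocyte and monocyte progenitor list, 9 probes were tested, 1 was higher, Irf8 by 0.50 (adjusted p = 0.0373, and 0.103 with slide as a blocking term), and none was lower.

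Markers of the other cells that use these genes differed between the groups in several lists, given here as the sum of the list's probe signals, each as a multiple of the array's 75th percentile, a sum in which bright probes count most. For 14 endothelial markers the sum was between 43.6 and 52.4 on KO arrays and between 33.2 and 34.0 on WT arrays, all 14 were well above background on at least 1 array, and of 14 tested probes 7 were higher and 1 lower (median 0.43). Vwf rose 2.52-fold (adjusted p = 0.00649), Stab2, a scavenger receptor of liver sinusoids, rose 1.98-fold (adjusted p = 0.00651), and Egfl7 rose 1.53-fold (adjusted p = 0.014), and each was called with slide as a blocking term. Lyve1 rose 1.66-fold (adjusted p = 0.0171) without the block only. The erythroid sum was between 91.4 and 100.2 on KO arrays and between 55.0 and 60.0 on WT arrays. Most of it came on every array from a Hemgn probe, which rose 1.96-fold (adjusted p = 0.00677). The gap in this sum therefore does not speak for the other probes of the list. By count, 5 of 15 tested probes were higher and 2 lower, among them Slc4a1 (4.22-fold higher, adjusted p = 0.00454) and Tfrc (2.87-fold higher, adjusted p = 0.0028). The endothelial and erythroid sums stand beside the higher values of Lmo2. Cd34 (0.32) and Tal1 (-1.09, and 0.20 within slide 1), also used by these cells, were not called. The part of these cells in the values of the 3 genes was not tested.

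The mast cell sum stands beside Kit and Gata2. It was between 2.65 and 2.93 on KO arrays and between 4.62 and 5.74 on WT arrays, and Fcer1a, Mcpt8 and Ms4a2 were well above background on no array. Of 7 tested probes 1 was higher and 3 lower. The tryptase Tpsb2, whose probe made the largest part of the sum on every array, fell by 1.05 (adjusted p = 0.0134). Mrgprb2, a mast cell receptor, fell by 0.68 (adjusted p = 0.0357). Cpa3, a mast cell carboxypeptidase, read -4.25, -2.20 and -4.24 in KO replicates 1 to 3 and -1.06, -0.12 and -0.66 in WT replicates 1 to 3, and was well above background in KO replicate 2 alone of the KO arrays. Its lower call (adjusted p = 0.0205) is given with no size, since the other 2 KO values are not measured levels. Hdc, which makes histamine, rose 3.02-fold (adjusted p = 0.0025). The calls of Cpa3 and Mrgprb2 ended with slide as a blocking term (adjusted p = 0.0575 and 0.202). The part of mast cells in the Kit and Gata2 values was not tested.

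The other marker lists are given by counts and sums. Megakaryocyte and platelet markers summed to between 8.28 and 9.81 in KO and between 6.99 and 7.47 in WT, with 3 of 12 probes higher and 2 lower. Of 3 Clec1b probes, 2 were higher, by 1.16 and 0.96 (limma adjusted p = 0.00697 and 0.00844), and the other differed by -0.065 (adjusted p = 0.793). Dividing cell markers had 7 of 16 probes higher and 1 lower, with Mki67 at 2.06 (adjusted p = 0.00697) and 1.83 (adjusted p = 0.00868) on its 2 named probes, while Ccnb1 fell by 2.15 (adjusted p = 0.00924). With slide as a blocking term 2 dividing cell probes were higher and 1 lower, and the second Mki67 probe lost its call (adjusted p = 0.0501). Their sums overlapped, between 8.20 and 10.6 in KO and between 8.05 and 8.74 in WT. T and NK cell markers had 3 of 7 tested probes lower and none higher, with sums between 23.7 and 28.2 in KO and between 41.1 and 42.0 in WT. Most of that sum came from 1 Cd4 probe, which read 4.46, 4.15 and 4.42 in KO replicates 1 to 3. It read 5.06, 5.11 and 5.08 in WT replicates 1 to 3. Of the list's 14 probes, 7 were well above background on no array, and Cd3g, Il7r, Klrb1c and Ncr1 had no probe that was. Fibroblast and stellate cell markers had 3 of 7 probes higher, and their sums overlapped. Of the hepatocyte probes 4 of 13 were higher, with sums between 3042 and 3687 in KO and between 2791 and 3087 in WT. The block also left fewer calls in most other lists. With it, 3 endothelial probes were higher and 0 lower, 5 erythroid higher and 0 lower, 1 mast cell higher and 1 lower, 2 megakaryocyte higher and 0 lower, 2 fibroblast and 1 hepatocyte higher, and 2 T and NK cell lower. Of the stem cell markers 3 were then higher and 0 lower, of the TAL1 and LMO2 partners 1 and 0, of the KIT list 2 and 1, and of the HOX list 0 and 1.

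**Figure D3:**
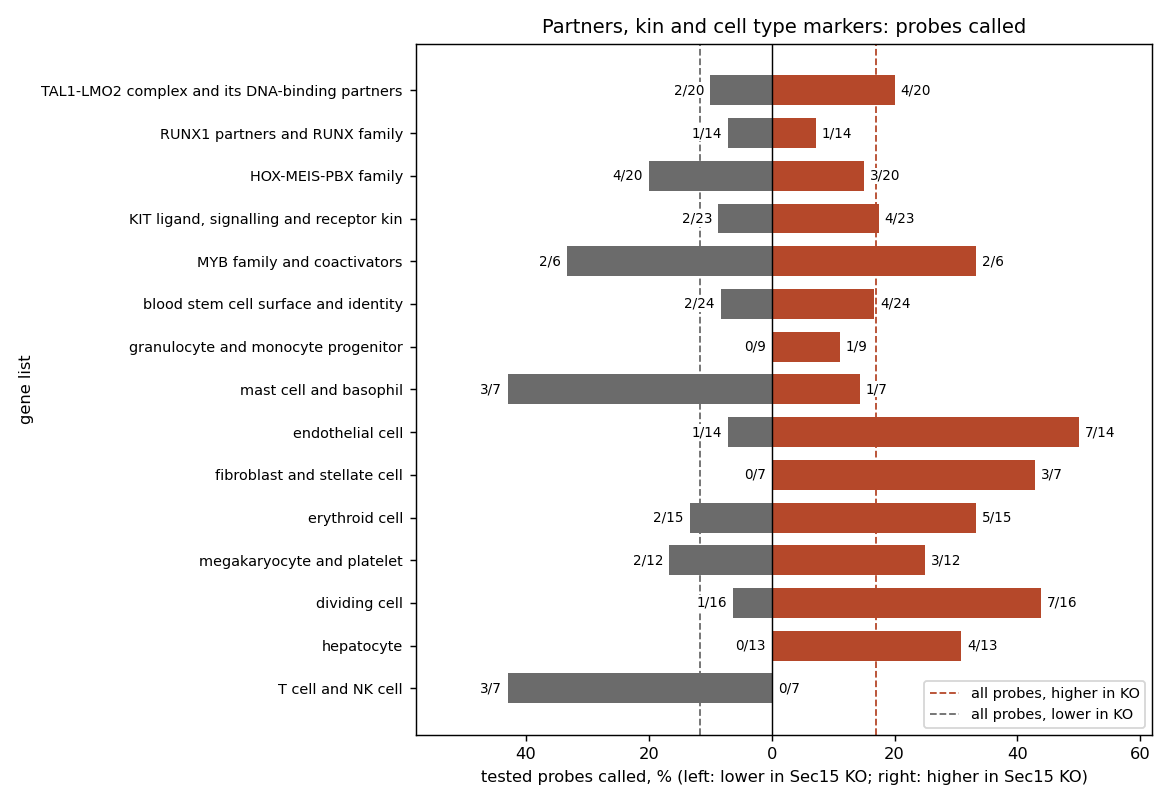
For each gene list on the y axis, bars show the percentage of its tested probes called at an adjusted p under 0.05, to the left those lower and to the right those higher in Sec15 KO, with the counts at the bar ends. Dashed lines mark the shares of all tested probes, 11.6% lower and 17% higher; endothelial and dividing cell markers reach farthest to the right, at 7 of 14 and 7 of 16 probes.

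The genes whose pattern over the 6 arrays was most like each member were sought among probes with a symbol and a signal flagged on all 6 arrays, by the root mean square difference of values centred on their own mean. A difference of 0 would mean the same pattern. Nearest to Lmo2 were Arnt (0.0145) and Rab1a (0.0238), and nearest to Meis1 were Hmgn1 (0.027) and Prdx1 (0.0304). Nearest to Tal1 were Six4 (0.0631) and the olfactory receptor gene Olfr136 (0.0932), which share its 2 low arrays: Six4 read -3.25, -1.31 and -2.94 in KO replicates 1 to 3 and -1.30, -1.40 and -1.41 in WT replicates 1 to 3. Nearest to Cd34 were Rest (0.0384) and Glmn (0.0434), and nearest to the brighter Hoxa9 probe were Bnip3 (0.0738) and Mterf1b (0.0761). With 17005 probes searched over 6 arrays, some probe lies close to most patterns, so these are descriptions.

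**Figure D4:**
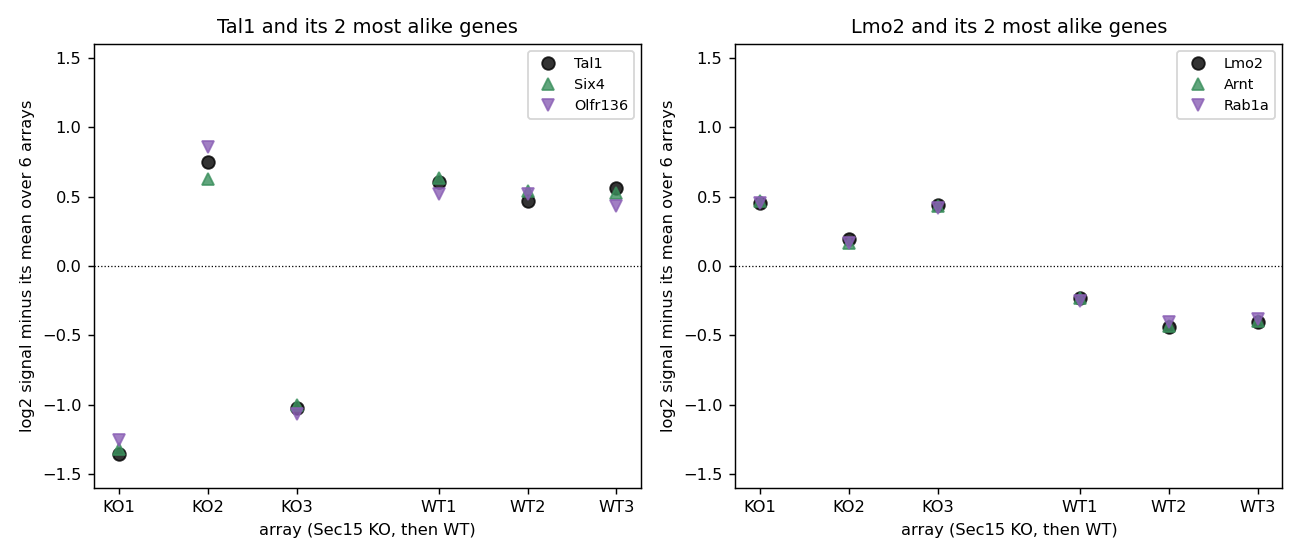
The y axis gives the log2 signal minus its mean over the 6 arrays on the x axis (Sec15 KO left, WT right), for Tal1 with Six4 and Olfr136 and for Lmo2 with Arnt and Rab1a. The Tal1 group is low on KO replicates 1 and 3 alone, and the Lmo2 group is higher on all KO arrays than on all WT arrays.

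Several of the 9 proteins are DNA-binding factors, so the promoters of the genes were searched for the letters these factors recognise. Promoter windows (250 bases before to 50 after the start, RefSeq, build GRCm38.p6) were found for 8 of the 9 genes, 12 windows in all; Lmo2 had no entry. The motifs, on both strands and with overlapping matches counted, were AGATAA for GATA factors, CAGNTG for the E-box, TGTGGT for RUNX, TGACAG for MEIS and AACNGT for MYB. The GATA letters stood in 1 of 12 windows (11.2% of 32851 windows of all genes), the E-box in 4 (51.4%), the RUNX letters in 2 (16.8%), the MEIS letters in 0 (19.2%) and the MYB letters in 2 (26.1%). Shown are the Tal1 window that holds letters of its own complex (GATA and E-box), the window of Meis1, the called gene with an entry, and the upstream Runx1 window, which holds 8 matches, the most of any. Capitals mark the matches, and a match is a description of the sequence only.
Tal1 chr4:115056176-115056475 (+ strand): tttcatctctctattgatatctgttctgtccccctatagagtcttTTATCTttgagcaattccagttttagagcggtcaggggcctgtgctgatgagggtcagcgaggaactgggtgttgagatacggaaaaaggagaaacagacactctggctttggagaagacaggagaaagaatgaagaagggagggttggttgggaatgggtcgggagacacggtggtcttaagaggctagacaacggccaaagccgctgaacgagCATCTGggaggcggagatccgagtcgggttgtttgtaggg
Meis1 chr11:19018920-19019219 (- strand): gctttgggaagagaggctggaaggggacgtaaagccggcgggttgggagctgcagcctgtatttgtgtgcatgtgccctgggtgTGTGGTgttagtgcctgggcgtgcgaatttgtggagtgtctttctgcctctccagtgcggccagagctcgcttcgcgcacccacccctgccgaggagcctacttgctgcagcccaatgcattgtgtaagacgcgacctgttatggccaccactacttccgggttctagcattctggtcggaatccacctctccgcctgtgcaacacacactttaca
Runx1 chr16:92826025-92826324 (- strand): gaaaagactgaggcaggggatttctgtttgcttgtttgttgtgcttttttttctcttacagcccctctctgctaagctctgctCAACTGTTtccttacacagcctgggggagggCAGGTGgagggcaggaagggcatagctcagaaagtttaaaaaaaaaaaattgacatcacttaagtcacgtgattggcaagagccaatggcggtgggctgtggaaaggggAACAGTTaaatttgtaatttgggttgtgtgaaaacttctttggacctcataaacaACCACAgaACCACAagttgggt
In the Tal1 window the capitals are the GATA letters, then the E-box. In the Meis1 window they are the RUNX letters, and in the Runx1 window the E-box, RUNX and MYB letters, of which an E-box overlaps MYB letters.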

How the data were processed

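Per the file headers, the authors' files come from Agilent Feature Extraction 11.0.1.1 and give the processed intensity of each spot, background-subtracted and detrended within its array, with no normalisation between arrays. Other deposited columns are flags for saturated spots, outliers and spots well above background. Outlier spots (178 to 236 per array) were left out, spots of 1 probe averaged, and log2 processed signal minus each array's 75th percentile used. Probes were named by matching accessions without versions to a RefSeq table (GRCm38.p6), which gave 1 symbol for 27234 of 39429 probes. Of the probes, 27024 had that last flag on at least 3 arrays and a value on all 6, and were compared with limma 3.58.1 (lmFit, eBayes) in R 4.3.3. On simulated data this called 42 of 100 probes with a true 2-fold change and 78 of 100 with a true 4-fold change. It also called 7 of 26824 unchanged probes. A far larger share of probes was called in the data (28.6%) than was changed in the simulation, so these rates need not hold for the data. A probe that was not called may still differ. No set test was run. The genes named were every probe of the 9 members and of Exoc6 and Exoc6b, for each of 15 lists up to 4 probes with the smallest p, and the 2 genes most alike in pattern. Some genes that this rule names are left out of the text. The members and lists were chosen with earlier results of these data known. The alternatives were other normalisations, background correction (normexp, offset 50, on median signals), filters, variance models, array weights, 1 probe per gene, replicate or slide blocks, slide 1 alone, WT replicates 1 and 2 averaged, and each array left out. The number of arrays limits the precision.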

Additional observations from a re-analysis of the deposited data

How the results depend on the processing

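Of the 2 member probes higher in Sec15 KO, 1 was called after cyclic loess, without a filter, with WT replicates 1 and 2 averaged and with the replicate block, 0 with the slide as a block or on slide 1 alone, and between 0 and 2 with 1 array left out. None was lower, except 2 with array weights and between 0 and 1 with 1 array left out. Kit reversed to 0.11 with array weights, 0.012 when KO replicate 2 and 0.015 when WT replicate 1 was left out, and ranged from -0.47 to 0.015 with 1 array left out. Tal1 reversed to 0.20 with the slide as a block and on slide 1 alone, and the second Hoxa9 probe to 0.059 with array weights. The weights ran from 0.135 (KO replicate 2) to 12.5 (WT replicate 3), so that setting rests mostly on few arrays. Over all probes, 4598 were higher and 3144 lower; 2947 were higher after cyclic loess, 2934 higher without a filter, 10938 higher and 8495 lower with array weights, 1311 and 1212 with the slide as a block, 0 and 0 on slide 1 alone (limma; 7833 at an unadjusted p under 0.05), and between 204 and 6815 higher and 149 and 5784 lower with 1 array left out. Of the list probes, 49 were higher and 24 lower; with array weights 81 and 59, with the slide as a block 23 and 6, on slide 1 alone 0 and 0, 11 lower without a filter, and between 6 and 59 higher and 1 and 39 lower with 1 array left out. For all probes and for list probes, the lowest of these counts came without WT replicate 3 and the highest without KO replicate 2. Same-numbered KO and WT samples share only a number: their deviations correlated at 0.10, 0.11 and 0.02, and KO replicate 3 did not correlate best with its own number. With the replicate block Meis1 had an adjusted p of 0.0762. The causes of these moves were not tested. Signals near background limit Kit, Gata2, Runx1 and Myb.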
